A study of Mus musculus with 23 samples.

Results

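The 33 genes described here encode the enzymes of the mitochondrial tricarboxylic acid (TCA) cycle and of mitochondrial fatty acid oxidation, and they were followed in mouse lung tumour cells that differed in genotype and in the time since tumour induction. The members were chosen by symbol from a list of known enzymes of both pathways, 12 for the TCA cycle and 21 for fatty acid oxidation. The rule uses no measured value, but the list was drawn up with earlier results of these data known. All 33 were found in both deposited expression tables, which hold 35455 and 35454 genes and share no library. The question was whether these genes followed genotype and week in cells in which the metabolic coactivator gene Ppargc1a differed.

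RNA sequencing was done on 23 libraries, each from tdTomato-positive cells sorted from the lungs of 1 mouse aged 3 to 4 months, on a mixed C57BL/6, 129 and FVB background. Every mouse carried 1 Braf CAT allele (CAT/+), in which Cre recombinase switches on BRAFV600E together with the red fluorescent protein tdTomato. Cre came from an adenovirus that uses the Sftpc promoter, so tumours were started in alveolar type 2 (AT2) cells, the surfactant-making cells of the lung. The first table holds 6 BRAFV600E libraries (CAT/+), 1 at 2 weeks post-initiation (p.i.), 3 at 6 weeks and 2 at 12 weeks, and 8 BRAFV600E/PI3KαH1047R libraries (CAT/+; HR/+, which also switch on mutant PI3Kα from Pik3ca), 2 at 2 weeks, 4 at 6 weeks and 2 at 12 weeks. The second table holds 5 BRAFV600E/PGC1αHet libraries (CAT/+; PGC1a mutant/+) and 4 BRAFV600E/PGC1αNull libraries (CAT/+; PGC1a mutant/mutant), littermates at 12 weeks p.i. that lose 1 or both copies of Ppargc1a only in the cells that express Cre. The 12-week mice received a lower virus titre than those of 2 and 6 weeks, so week and titre cannot be told apart at 12 weeks.

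The TCA cycle oxidises acetyl-CoA in the mitochondrial matrix and passes its electrons on to the respiratory chain. Long-chain fatty acids reach it by a sequence of steps in which they are activated to acyl-CoA, carried into the matrix as carnitine esters, and shortened in rounds of dehydrogenation, hydration, renewed dehydrogenation and thiolysis, with electrons handed on by the electron transfer flavoprotein. PGC1α, the product of Ppargc1a, is a coactivator of nuclear receptors such as the estrogen-related and PPAR receptors and is known to promote mitochondrial gene expression in muscle, brown fat and liver, while AT2 cells also synthesise fatty acids for surfactant.

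The deposited values are normalised, so the number of reads behind a library is not known from them, and their totals ran from 16433820 to 20287296 in the first table and from 7115753 to 9159567 in the second. All libraries expressed the AT2 gene Sftpc (normalised read counts from 21173 to 392700). Across the first table the summed AT2 markers ran from 610970 to 1684400 in BRAFV600E libraries and from 90614 to 1243500 in BRAFV600E/PI3KαH1047R libraries, with both lowest values at 2 weeks in the latter. At 2 weeks genotype also coincided with sex, with 1 female against 2 males. Over all weeks most BRAFV600E libraries were labelled female and most BRAFV600E/PI3KαH1047R libraries male. Both BRAFV600E libraries of 12 weeks were labelled female. Genotype and labelled sex are thus partly mixed in the pooled comparison too. Both BRAFV600E/PI3KαH1047R libraries of 12 weeks had Y-linked expression opposite to their sex labels, so the pooled and the 6-to-12-week differences of the named genes are also given without them.

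The start regions of 28 of the 33 genes were found in RefSeq, in 34 windows of 250 bases before and 50 bases after a start site, and were searched on both strands for 6 short motifs of factors tied to mitochondrial genes. The sequence AAGGTCA, the core of the estrogen-related receptor element, was present in 2 of 34 windows (5.88%), those of Acadm and of 1 of the Ogdh starts, against 4.72% of all 32851 windows. The full element TNAAGGTCA was found in 0 of 34 and in 1.28% of all windows, and the PPAR-type repeat AGGTCANAGGTCA in 0 and in 0.0396%. The ETS-family motif CCGGAAG, which GABPA binds, was present in windows of 5 of the 28 genes (Idh3b, Idh3g, Dlst, Slc25a20 and Cpt2), or 14.7% of their windows against 8.86% of all. The NRF1 motif GCGCATGCGC was present in 1 window, that of Etfdh (2.94% against 0.971%), and the FOXO motif TGTTTAC in 0 (3.65% of all windows). AAGGTCA lies inside TNAAGGTCA, and inside the repeat where its N is A, so these matches are not independent. The 250 bases before the start are shown for the genes to which the results below return, the activating enzyme Acsl1 with both of its starts and Acadm, and for Cpt2 as an example of the ETS motif (RefSeq, GRCm38.p6, 5′ to 3′ in the direction of the gene, capitals mark AAGGTCA or CCGGAAG on either strand). Both Acsl1 windows are without capitals because neither motif was in them, and the deposited values sum over the transcripts of both starts.
Acsl1, first start (chr8:46470787-46471036, plus strand): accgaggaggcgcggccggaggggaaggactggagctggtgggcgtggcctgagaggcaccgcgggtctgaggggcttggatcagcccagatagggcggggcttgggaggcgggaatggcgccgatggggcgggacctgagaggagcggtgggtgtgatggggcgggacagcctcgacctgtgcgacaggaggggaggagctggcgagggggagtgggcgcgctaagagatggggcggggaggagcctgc
Acsl1, second start (chr8:46490716-46490965, plus strand): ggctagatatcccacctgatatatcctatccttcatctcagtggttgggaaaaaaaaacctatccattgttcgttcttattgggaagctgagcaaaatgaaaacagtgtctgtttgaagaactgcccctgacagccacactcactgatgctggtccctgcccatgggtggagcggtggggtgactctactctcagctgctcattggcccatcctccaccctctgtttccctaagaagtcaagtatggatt
Acadm (chr3:153944644-153944893, minus strand): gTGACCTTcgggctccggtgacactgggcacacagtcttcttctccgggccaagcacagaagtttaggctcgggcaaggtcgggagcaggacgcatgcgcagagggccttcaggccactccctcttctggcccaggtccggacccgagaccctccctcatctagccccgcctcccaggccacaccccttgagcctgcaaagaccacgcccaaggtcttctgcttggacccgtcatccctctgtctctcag
Cpt2 (chr4:107923590-107923839, minus strand): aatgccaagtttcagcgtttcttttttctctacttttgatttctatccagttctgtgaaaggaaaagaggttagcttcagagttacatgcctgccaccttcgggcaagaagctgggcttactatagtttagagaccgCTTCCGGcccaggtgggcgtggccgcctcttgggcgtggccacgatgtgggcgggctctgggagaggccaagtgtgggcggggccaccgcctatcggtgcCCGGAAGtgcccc

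Levels differed widely among the members. Expressed per kilobase of the longest annotated coding transcript, the highest TCA cycle levels in BRAFV600E libraries were those of Idh3b, a subunit of NAD-dependent isocitrate dehydrogenase, at 1270 ± 206 (SD, n = 6 mice), and of citrate synthase (Cs), which opens the cycle, at 1186 ± 200 normalised counts per kilobase. The catalytic subunit gene Idh3a stood at 141 ± 27.4 on the same per-kilobase scale, far below Idh3b. The ADP-forming and GDP-forming succinyl-CoA ligase subunits Sucla2 (287 ± 33.1) and Suclg2 (209 ± 43.4) were closer, with ranges over libraries of 236 to 322 and 146 to 257 that overlapped. Of the carnitine palmitoyltransferases of the outer membrane, the liver-type Cpt1a stood at 576 ± 174 per kilobase and the muscle-type Cpt1b at 7.42 ± 5.98. Among the acyl-CoA dehydrogenases, which are named for chain length, the long-chain Acadl led at 700 ± 186 per kilobase, followed by the very-long-chain Acadvl at 365 ± 70.5, the medium-chain Acadm at 218 ± 99.4 and the short-chain Acads at 4.99 ± 2.81. The ranges of Acadl and Acadvl (349 to 861 and 280 to 448) and of Acadvl and Acadm (280 to 448 and 160 to 419) overlapped, while Acads lay below all others at 2.01 to 8.50. The same order of the long-chain, very-long-chain, medium-chain and short-chain genes held in the means of the BRAFV600E/PGC1αHet libraries (488, 193, 151 and 16.96 per kilobase). Hadha and Hadhb, which encode the subunits of the mitochondrial trifunctional protein, start 86 bases apart on opposite strands of chromosome 5, and stood at 503 ± 145 and 956 ± 108 per kilobase.

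Together the 33 genes made up 0.162% to 0.270% of the normalised counts of a library. The mean log2(normalised count + 1) of the 12 TCA cycle genes was 9.86 ± 0.13 in BRAFV600E (n = 6) and 9.79 ± 0.21 in BRAFV600E/PI3KαH1047R libraries (n = 8). That of the 21 fatty acid oxidation genes was 9.15 ± 0.14 and 9.20 ± 0.14. The ranges of both genotypes overlapped for each pathway, and so did those of BRAFV600E/PGC1αHet and BRAFV600E/PGC1αNull, at 8.89 ± 0.25 (n = 5) and 8.82 ± 0.25 (n = 4) for the TCA cycle and 8.67 ± 0.07 and 8.58 ± 0.24 for the 20 fatty acid oxidation genes that passed the filter there. By week the BRAFV600E/PI3KαH1047R mean for fatty acid oxidation was 9.14 at 2 weeks, 9.19 at 6 weeks and 9.31 at 12 weeks, with SDs of 0.08, 0.16 and 0.15, and the BRAFV600E mean was 8.95 (1 library), 9.18 and 9.20.

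**Figure D1:**
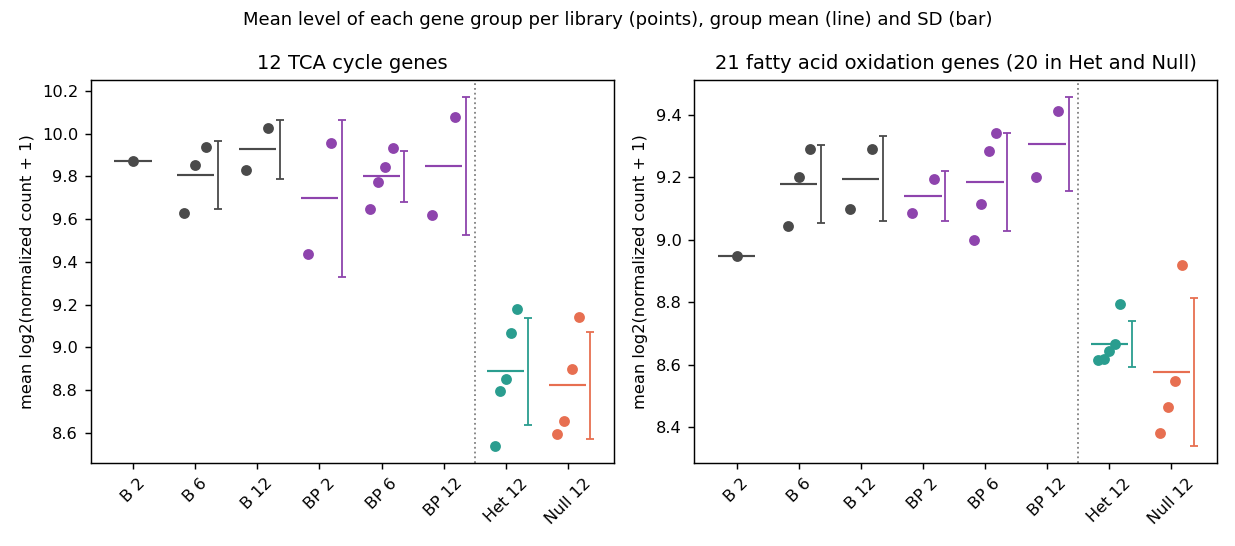
Mean log2(normalised count + 1) of the 12 TCA cycle genes (left) and of the 21 fatty acid oxidation genes (right, 20 in Het and Null) in each library. B is BRAFV600E, BP is BRAFV600E/PI3KαH1047R, Het and Null are the PGC1α groups, and the number is the week p.i. Points are libraries, lines group means and bars SD. The dotted line parts tables that were normalised separately, so levels are not comparable across it. Het and Null overlap in both panels, as do the genotypes of the first table at 6 and at 12 weeks. The single BRAFV600E library of 2 weeks lies lowest of the first table for fatty acid oxidation at 8.95.

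Ppargc1a was lower in the BRAFV600E/PI3KαH1047R cells than in the BRAFV600E cells. It ran from 350 to 1088 normalised counts in BRAFV600E (median 711) and from 51.9 to 415 in BRAFV600E/PI3KαH1047R (median 222), with an overlap only at 12 weeks. The difference was -1.92 ± 0.45 (log2, SE), a ratio of 0.264, with an adjusted limma p of 0.225 over all genes and an exact permutation p of 0.0027. The adjusted p did not pass 0.05, and the difference was -1.94 without both 12-week BRAFV600E/PI3KαH1047R libraries. The 33 enzymes were close to level between the genotypes. Their median difference was 0.00 (log2), with 17 higher and 16 lower, beside a median of 0.02 and 51.8% higher over all 17558 genes tested. With the labelled sex as a factor 24 were higher and 9 lower, with a median of 0.07, and with single libraries left out or other settings 9 to 20 were lower. 0 of 33 passed an adjusted limma p of 0.05, where 4 of all genes did (0.0228%), and 1 of 33 had an unadjusted p below 0.05, against 6.83% of all genes. No member had separate ranges in the genotypes, as 0.211% of all genes did. For 28 of the 33 the 95% interval of the difference lay within a doubling in either direction, and the exceptions were Idh2, Acsl1, Cpt2, Acads and Cpt1b.

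The 12 TCA cycle genes divided into 6 higher and 6 lower, with a median of -0.02. Idh2, the NADP-dependent mitochondrial isocitrate dehydrogenase (chromosome 7, 80094846 to 80115392, GRCm38), was the member with the smallest p. It ran from 453 to 782 normalised counts in BRAFV600E (median 549) and from 162 to 673 in BRAFV600E/PI3KαH1047R (median 422), with overlapping ranges. The difference was -0.68 ± 0.30 (exact permutation p = 0.051, limma adjusted p = 0.709), and it was -0.72 without both 12-week BRAFV600E/PI3KαH1047R libraries, -0.42 without the 2-week libraries and -0.38 with the labelled sex as a factor. The lowest values were those of both 2-week BRAFV600E/PI3KαH1047R libraries (162 and 243) and of 1 of the 12-week libraries (238). Fh1, which encodes fumarase, ran from 399 to 717 against 227 to 531 (difference -0.44 ± 0.23, limma adjusted p = 0.738), and its difference was -0.55 without both 12-week BRAFV600E/PI3KαH1047R libraries. The subunits of NAD-dependent isocitrate dehydrogenase and of the oxoglutarate dehydrogenase complex were nearer to 0, with -0.09 for Idh3a, 0.02 for Idh3b, -0.03 for Idh3g, 0.02 for Ogdh and 0.18 for Dlst. Citrate synthase (-0.05, interval -0.36 to 0.26) and mitochondrial malate dehydrogenase Mdh2 (-0.14, interval -0.49 to 0.21) were among the most narrowly bounded members.

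The 21 fatty acid oxidation genes divided into 11 higher and 10 lower, with a median of 0.00. At the entry step, Acsl1 (chromosome 8, 46471037 to 46536051), which activates long-chain fatty acids to acyl-CoA, had the largest positive difference of the 33 at 0.68 ± 0.40 (limma adjusted p = 0.750). It ran from 302 to 806 in BRAFV600E (median 573) and from 219 to 1673 in BRAFV600E/PI3KαH1047R (median 1136), a wide and overlapping spread. Its lowest value was that of the first 2-week BRAFV600E/PI3KαH1047R library, and without the 2-week libraries the difference was 1.11, beside 0.56 without both 12-week BRAFV600E/PI3KαH1047R libraries. The carnitine shuttle genes Cpt1a (0.10 ± 0.23) and Slc25a20 (0.00 ± 0.19, the carnitine-acylcarnitine carrier) lay near 0. Of the dehydrogenases, Acadm (chromosome 3, 153922357 to 153944632) stood at 327 to 858 in BRAFV600E (median 373) and at 390 to 938 in BRAFV600E/PI3KαH1047R (median 568.3). Its difference was 0.47 ± 0.24 (limma adjusted p = 0.732) and 0.48 without both 12-week BRAFV600E/PI3KαH1047R libraries, and 1 BRAFV600E library of 12 weeks stood at 858 while the other 5 were at 327 to 402. Of the 6 genes of the hydration, hydroxyacyl-CoA dehydrogenation and thiolysis steps, 5 were lower, led by Hadh at -0.35 ± 0.23, but each interval included 0. Hadha and Hadhb, with their adjoining starts, were at 0.00 ± 0.21 and -0.07 ± 0.18.

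**Figure D2:**
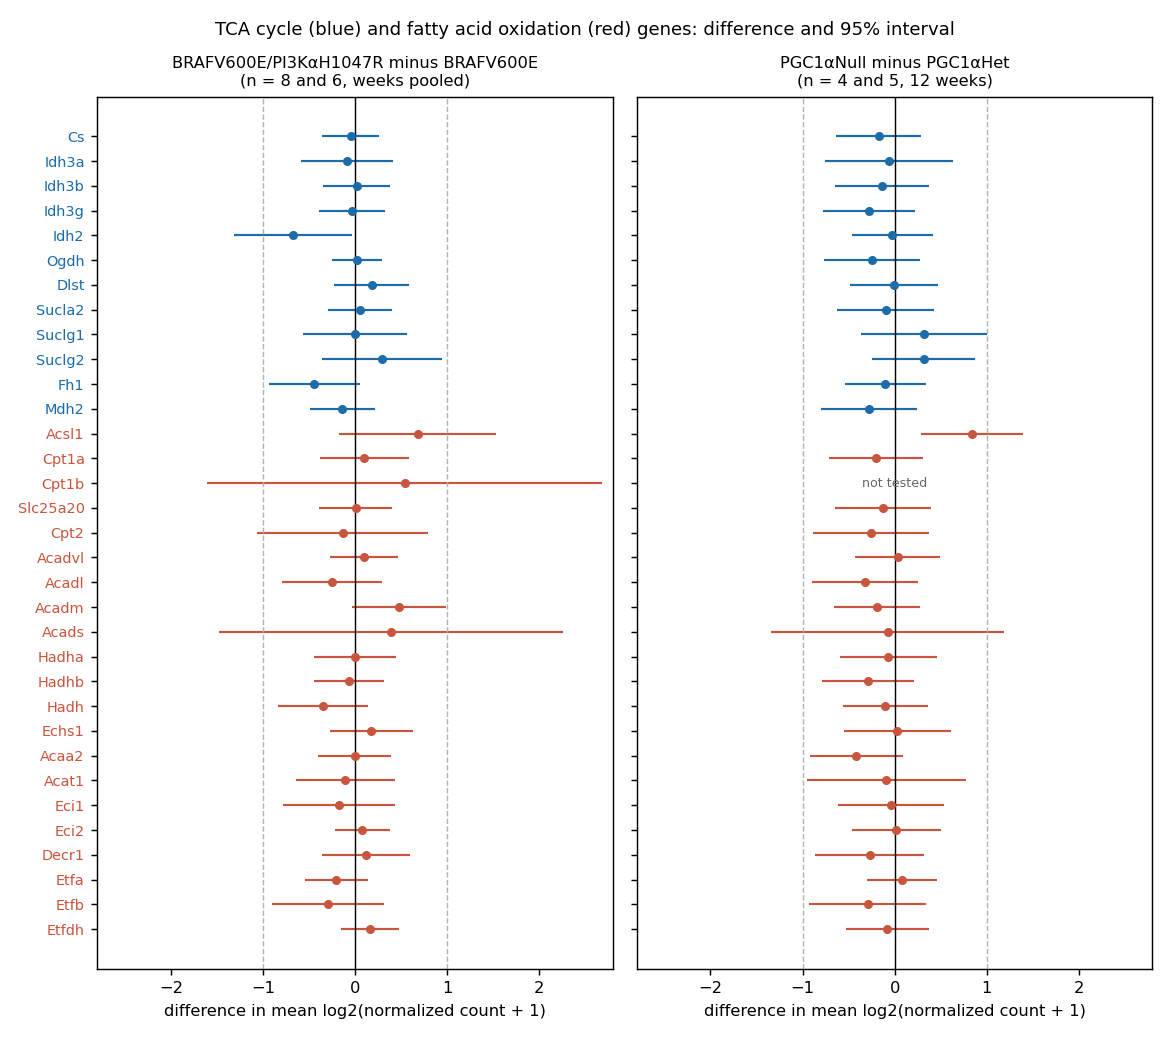
Difference in mean log2(normalised count + 1) for each gene, with its 95% limma interval (lines), between BRAFV600E/PI3KαH1047R and BRAFV600E (left, weeks pooled) and between PGC1αNull and PGC1αHet (right). TCA cycle genes are blue and fatty acid oxidation genes red, and dashed lines mark a doubling and a halving. Points gather near 0, and of the 32 intervals on the right that of Acsl1 is the one that leaves out 0.

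At 2 weeks p.i. the comparison rests on 1 BRAFV600E library, and the intervals are wide, with 5 of 33 within a doubling. The median was 0.09, with 15 of 21 fatty acid oxidation genes higher and 7 of 12 TCA cycle genes lower. It was -0.038 (14 higher, 18 lower) without the first BRAFV600E/PI3KαH1047R library and -0.034 (15 higher, 18 lower) with quantile normalization. 0 of 33 members passed the adjusted limma p of 0.05 (0.0171% of all genes) and 2 had an unadjusted p below 0.05, where 13.5% of all genes did. Ppargc1a stood at 772 in BRAFV600E and at 177 and 51.9 in BRAFV600E/PI3KαH1047R, a difference of -3.00 ± 0.94 (limma adjusted p = 0.198). Cpt1a (chromosome 19, 3322334 to 3385733), the rate-setting enzyme of entry into mitochondria, stood at 1175 in the BRAFV600E library and at 2167 and 3436 in the BRAFV600E/PI3KαH1047R libraries, a difference of 1.22 ± 0.43 (limma adjusted p = 0.245). Idh2 stood at 512 against 162 and 243, a difference of -1.36 ± 0.59 (limma adjusted p = 0.344). Acadl (-0.96 ± 0.52) and Fh1 (-0.91 ± 0.53) followed. With the labelled sex as a factor Acadl was at -0.47, and Fh1 was at -0.43 without the second BRAFV600E/PI3KαH1047R library and at -1.39 without the first. An exact permutation test of 1 library against 2 cannot go below 0.33. The summed AT2 markers were at 874640 in the BRAFV600E library and at 189170 and 90614 in the others. The sums of 8 of 13 marker lists were higher in both BRAFV600E/PI3KαH1047R libraries than in the BRAFV600E library, among them endothelial markers at 59711 and 61440 against 7788, fibroblast markers at 25729 and 35035 against 11721 and macrophage markers at 3719 and 2321 against 1132. The AT1, club cell, ciliated, lymphocyte and neutrophil sums were the other 5, and the adipocyte and muscle sums were lower in both, as the AT2 sum was. The part of these cells in the values of 2 weeks was not tested. The first BRAFV600E/PI3KαH1047R library of 2 weeks also stood apart in single genes, with Acads at 316 against 0.748 to 15.9 in the other 13 libraries, Suclg2 at 2337 against 424 to 1114 and Cpt2 at 41.4 against 130 to 470.

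At 6 weeks, the comparison with most libraries, the members were again level. The median was 0.02, with 18 higher and 15 lower and 22 of 33 intervals within a doubling, but 10 were higher and 23 lower without the third BRAFV600E library of the week. 0 of 33 passed the adjusted limma p of 0.05 (0.0228% of all genes) and 0 had an unadjusted p below 0.05 (4.24% of all genes). Ppargc1a did not overlap at this week, at 650, 1017 and 1088 against 117, 268, 282 and 301 (difference -1.98 ± 0.58, limma adjusted p = 0.921, exact permutation p = 0.029, the smallest that 3 against 4 allows). Acsl1 stood at 524, 602 and 673 in BRAFV600E and at 534, 1353, 1393 and 1425 in BRAFV600E/PI3KαH1047R. Thus 3 of the 4 double-mutant libraries lay above every BRAFV600E library and the fourth within their range, and the difference was 0.87 ± 0.51 (limma adjusted p = 1.00, exact permutation p = 0.114). Acadm stood at 327, 358 and 402 against 390, 499, 534 and 938 (difference 0.63 ± 0.36, exact permutation p = 0.086), with 1 library of each genotype in the shared range. Etfb, the beta subunit of the electron transfer flavoprotein, stood at 441, 490 and 499 against 167, 287, 404 and 472 (difference -0.62 ± 0.41), and Fh1 at 399, 431 and 501 against 227, 315, 375 and 448 (difference -0.42 ± 0.33). Leaving out 1 BRAFV600E/PI3KαH1047R library brought Acadm to 0.38 (the second), Etfb to -0.33 (the first) and Fh1 to -0.23 (the third). That first library, which also had the lowest Ppargc1a of the week, had summed AT2 markers of 342230 against 610970 to 1360200 in the other libraries of 6 weeks and endothelial markers of 85925 against 9871 to 41977, and the part of these cells in the values was not tested.

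At 12 weeks the median was 0.02, with 17 higher and 16 lower and 14 of 33 intervals within a doubling. This split turned on single libraries, with 25 lower and 8 higher without the second BRAFV600E/PI3KαH1047R library, 11 lower and 22 higher without the first, and 22 lower and 11 higher without the first BRAFV600E library. 0 of 33 passed the adjusted limma p of 0.05 (0.0114% of all genes), and 1 had an unadjusted p below 0.05 (3.76% of all genes). That gene was Acsl1, at 302 and 543 in BRAFV600E and 768 and 1673 in BRAFV600E/PI3KαH1047R, a difference of 1.48 ± 0.66 (limma adjusted p = 1.00). The ranges did not overlap, but an exact permutation of 2 against 2 cannot go below 0.33, and the difference was 0.92 without the first BRAFV600E/PI3KαH1047R library. That library, the one with Acsl1 at 1673, had the highest macrophage sum of the 14 libraries (5303, against 1672 and 2000 in BRAFV600E of this week and 1795 in the other BRAFV600E/PI3KαH1047R library) and the lowest club cell sum (1713, against 7388 to 16020 in the other 3 of this week), and the part of these cells in the values was not tested. Ppargc1a stood at 350 and 408 in BRAFV600E and at 75.5 and 415 in BRAFV600E/PI3KαH1047R, with overlap, and its difference of -1.09 ± 0.77 was 0.13 without the first BRAFV600E/PI3KαH1047R library and -2.31 without the second. Decr1, a reductase needed for unsaturated fatty acids, stood at 603 and 719 against 943 and 1023 (0.58 ± 0.39), and Etfa, the alpha subunit of the electron transfer flavoprotein, at 1169 and 1249 against 721 and 1161 (-0.40 ± 0.32). Etfa was at -0.057 without the first BRAFV600E/PI3KαH1047R library and at -0.74 without the second. Idh2 stood at 493.1 and 782 against 238 and 673 (-0.63 ± 0.48), and the difference was 0.12 without the first BRAFV600E/PI3KαH1047R library, -1.38 without the second, and -0.30 and -0.96 without the first and the second BRAFV600E library. Since both double-mutant libraries of this week are those with Y-linked expression opposite to their labels, no value of the week remains without them, while the median of the pooled comparison was -0.01 without both.

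The change of the PI3Kα effect between weeks was tested directly. The effect on Ppargc1a differed by 1.02 ± 1.10 between 2 and 6 weeks and by 0.89 ± 0.96 between 6 and 12 weeks. The former was 1.89 without the first BRAFV600E/PI3KαH1047R library of 2 weeks and 0.145 without the second. The latter was 2.11 without the first BRAFV600E/PI3KαH1047R library of 12 weeks and -0.33 without the second. From 2 to 6 weeks 1 of 33 members had an unadjusted limma p below 0.05, against 8.95% of all genes, and from 6 to 12 weeks 0 did, against 2.87%. The gene of the first interval was Cpt1a, with a change of -1.32 ± 0.50 (limma adjusted p = 0.483). It rests on the single BRAFV600E library of 2 weeks at 1175, since the 3 of 6 weeks were at 2629 to 2896 and the double-mutant libraries at 1962 to 3782. The Acsl1 effect went from -0.85 at 2 weeks to 0.87 at 6 weeks, a change of 1.72 ± 0.96 (limma adjusted p = 0.638), which was 0.69 without the first BRAFV600E/PI3KαH1047R library of 2 weeks and 2.75 without the second. For Acadl and Idh3b the changes were 1.06 ± 0.61 and -0.74 ± 0.45, at 0.66 for Acadl without the third BRAFV600E library of 6 weeks, 0.65 for Acadl with the labelled sex as a factor and -0.41 for Idh3b without the first BRAFV600E/PI3KαH1047R library of 2 weeks. From 6 to 12 weeks the smallest p was that of Decr1 (0.79 ± 0.49), followed by Suclg1 (-0.76 ± 0.61), Etfb (0.80 ± 0.67) and Idh3g (0.40 ± 0.41), all with adjusted limma p of 1.00. With 1 library left out Suclg1 came to -0.26 (the third BRAFV600E library of 6 weeks), Etfb to 0.098 and 1.501 (the first and the second BRAFV600E library of 12 weeks) and to 0.50 (the first BRAFV600E/PI3KαH1047R library of 6 weeks), and Idh3g to 0.25 without the first BRAFV600E or the fourth BRAFV600E/PI3KαH1047R library of 6 weeks and 0.24 without the second BRAFV600E/PI3KαH1047R library of 12 weeks.

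**Figure D3:**
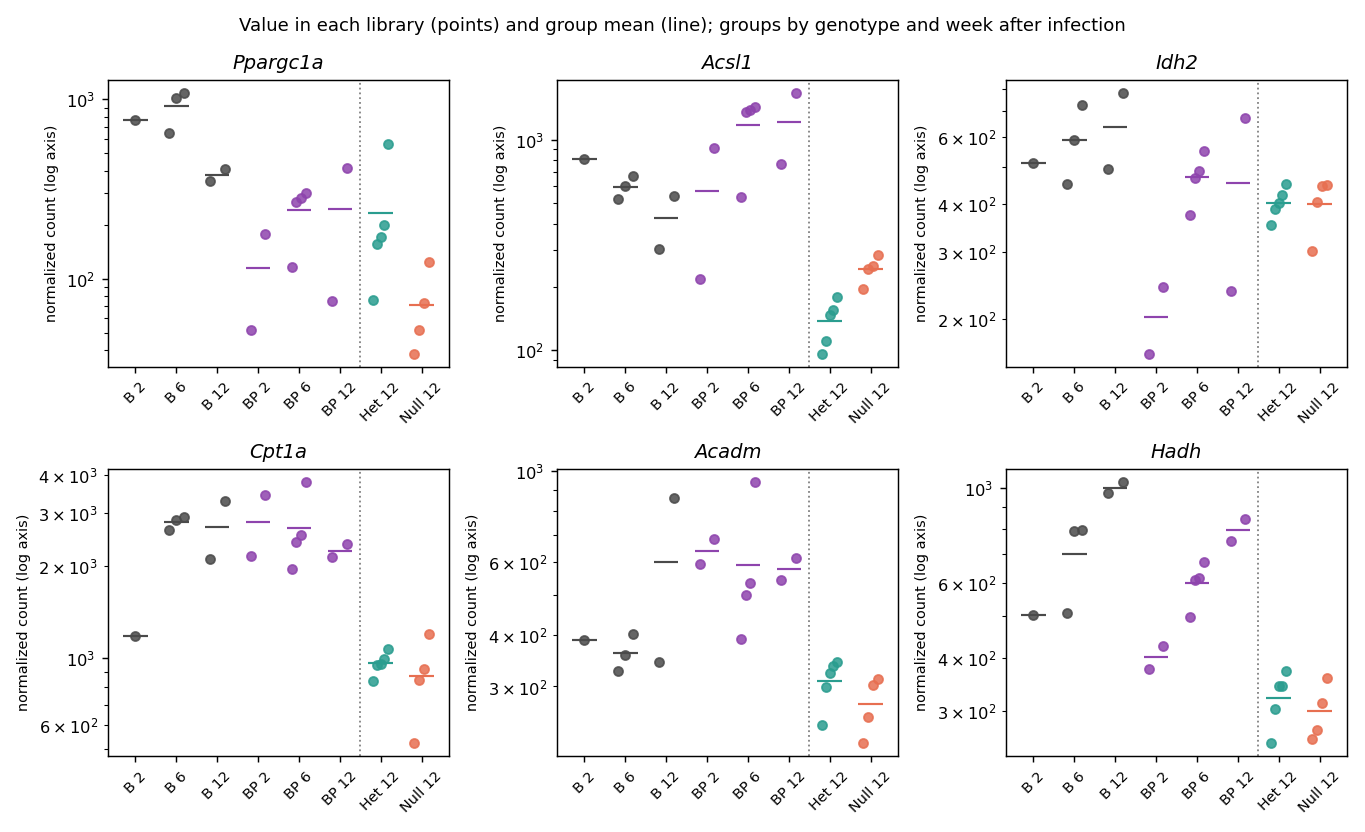
Normalised count (log axis) of Ppargc1a and of 5 members in each library. Columns are genotype and week as in the plot of pathway levels, points are libraries and lines group means, and levels are not comparable across the dotted line. Ppargc1a is separate between B and BP at 6 weeks, Acsl1 is separate between Het and Null, and Hadh is higher at 12 than at 2 weeks in both genotypes.

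Over weeks, with genotype in the fit, the members were also level. Ppargc1a differed by 0.90 ± 0.54 from 2 to 6 weeks and by -0.80 ± 0.49 from 6 to 12 weeks, with overlapping ranges. With 1 library left out these ran from 0.27 to 1.37 and from -1.43 to -0.48, and the latter was -1.41 without both 12-week BRAFV600E/PI3KαH1047R libraries. From 2 to 6 weeks the median was 0.05, with 17 higher and 16 lower, and 24 higher and 8 lower without the first BRAFV600E/PI3KαH1047R library of 2 weeks. 0 of 33 passed the adjusted limma p of 0.05 (0.0513% of all genes) and 3 had an unadjusted p below 0.05 (11.9% of all genes). They were Acads (-2.75 ± 0.93), Hadh (0.52 ± 0.20) and Idh2 (0.85 ± 0.34), with adjusted limma p of 0.281, 0.329 and 0.341. Acads stood at 15.2 in BRAFV600E and at 316 and 9.85 in BRAFV600E/PI3KαH1047R at 2 weeks, against 3.76 to 6.12 and 0.748 to 12.2 at 6 weeks. Without the library at 316 its mean fell under the minimum of 10, so it was not tested. Acadvl followed at 0.40 ± 0.21. From 6 to 12 weeks the median was 0.03, with 18 higher and 15 lower, but it was 0.13 (24 higher, 9 lower) without the first 12-week BRAFV600E/PI3KαH1047R library and -0.036 (13 higher, 20 lower) without the second. 0 of 33 passed the adjusted limma p of 0.05, as did 0 of all genes (0%), and 1 had an unadjusted p below 0.05, where 933 of 17558 genes did (5.31%).

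That gene was Hadh (chromosome 3, 131233419 to 131272101), the hydroxyacyl-CoA dehydrogenase for short and medium chains, which differed in the same direction over both intervals. In BRAFV600E it stood at 505 at 2 weeks, at 509, 794 and 795 at 6 weeks and at 971 and 1030 at 12 weeks. In BRAFV600E/PI3KαH1047R it stood at 376 and 426, then at 499, 610, 616 and 669, then at 748 and 846. Within each genotype the ranges of 2, 6 and 12 weeks did not overlap, so the order of the weeks was the same in both genotypes. Such an order, looked for in other genes after the values of Hadh were seen, was present in 1 of 33 members and in 16 of all 17558 genes (0.0911%). The summed AT2 markers of BRAFV600E/PI3KαH1047R libraries had the same order without overlap, at 90614 and 189170, then 342230 to 938940, then 955280 and 1243500. In BRAFV600E they overlapped between weeks, at 874640, then 610970 to 1360200, then 1147000 and 1684400, and the 6-week library with Hadh at 509 had the lowest sum. The part of these cells in the values of Hadh was not tested. The difference from 6 to 12 weeks was 0.48 ± 0.18 (unadjusted limma p = 0.021, limma adjusted p = 0.901), and the exact permutation p over the 11 libraries was 0.0067, the smallest they can give when labels are exchanged within genotype. Without both 12-week BRAFV600E/PI3KαH1047R libraries the difference was 0.52. Dlst (0.35 ± 0.19), Fh1 (0.39 ± 0.26) and Hadhb (-0.28 ± 0.17) came next by p, none with an adjusted limma p below 0.90. Without both of those libraries they were at 0.30, 0.19 and -0.17, and without the first alone Hadhb was at -0.16.

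In the second table, Ppargc1a stood at 75.8, 155, 170, 200 and 561 in BRAFV600E/PGC1αHet and at 38.0, 51.6, 72.7 and 124 in BRAFV600E/PGC1αNull libraries. The ranges overlapped by 1 library of the former at 75.8, and the difference was -1.51 ± 0.50 (limma adjusted p = 0.978, exact permutation p = 0.040). A gene-level value also counts reads from exons outside the deleted part, so it does not measure the recombination itself. Of the 32 members tested (Cpt1b, at 0 to 23.1, was under the minimum mean of 10), 25 were lower and 7 higher in the Null libraries, where 51.2% of all 17424 genes were higher. The size was small, with a median of -0.10 and differences of -0.41 to 0.32 for all but Acsl1. Both pathways shared it, with 10 of 12 TCA cycle genes and 15 of 20 fatty acid oxidation genes lower and medians of -0.10 each. The pathway means of single libraries, given above, overlapped between Het and Null. The share of all genes was not matched for level. With a minimum mean of 40, 5940 of 12727 genes were higher (median -0.03), beside 7 of 31 members (median -0.10). The mean log2 value over all genes was 6.48 to 6.78 in Het and 6.62 to 6.84 in Null. In each group the library with the lowest such mean had the highest means of both pathways. The part of this in the counts of members was not tested. The endothelial, club cell and fibroblast marker sums were higher in every Null than in every Het library (the values stand beside those of Acsl1), and their part in the tilt of the members was not tested. The 15 other settings and left-out libraries gave 20 to 26 lower, but the median was -0.05 without the fourth Null library (12 higher) and -0.26 without the second, and 11 were higher without the fourth Het library. 0 of 32 passed the adjusted limma p of 0.05, as did 0 of all genes (0%), and 1 had an unadjusted p below 0.05, where 667 genes did (3.83%). For 29 of 32 the 95% interval lay within a doubling in either direction, and the exceptions were Acads, Suclg1 and Acsl1.

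Acsl1 was the exception among them. It stood at 96.1, 111, 147, 155 and 180 in BRAFV600E/PGC1αHet and at 195, 244, 250 and 283 in BRAFV600E/PGC1αNull. Every Null library lay above every Het library, which was so for 1 of 32 members and for 1.4% of all genes. The difference was 0.84 ± 0.26 (unadjusted limma p = 0.0064, limma adjusted p = 0.840, exact permutation p = 0.016), a ratio of 1.79 with a 95% interval of 1.22 to 2.63. It did not pass the adjustment over all genes, and left-out libraries gave 0.72 to 0.94. The other 3 members of the activation and shuttle group that were tested, Cpt1a (-0.20 ± 0.24), Slc25a20 (-0.13 ± 0.24) and Cpt2 (-0.25 ± 0.29), had the opposite sign. Of 13 marker lists, 3 had sums that were higher in the Null libraries without overlap, and 10 overlapped. The sum of 10 endothelial markers ran from 473 to 845 in Het and from 1148 to 2014 in Null, that of 6 club cell markers from 1697 to 3521 and from 4422 to 19743, and that of 8 fibroblast markers from 133 to 419 and from 476 to 1747. Among those that overlapped, the macrophage sum was 322 to 1558 and 896 to 2506, the ciliated cell sum 99.6 to 246 and 153 to 281, and the adipocyte sum 24.6 to 85.5 and 34.1 to 115. The part of these cells in the value of Acsl1 was not tested. In such bulk samples, more cells of a type and more RNA per cell cannot be told apart.

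After Acsl1, the members with the smallest p in the Null comparison were Acaa2, the last thiolase of the pathway, Hadhb and Suclg2. Acaa2 stood at 636, 684, 709, 755 and 820 in Het and at 417, 471, 491 and 873 in Null. Thus 3 of the 4 Null libraries lay below every Het library and the other one above all of them, and the difference was -0.41 ± 0.23 (limma adjusted p = 0.998, exact permutation p = 0.103). Hadhb differed by -0.29 ± 0.23, beside -0.07 ± 0.24 for Hadha across their shared start region, and Suclg2 by 0.31 ± 0.26. Without the second Null library Acaa2 was at -0.65 and Suclg2 at 0.20, without the fourth Null library Hadhb was at -0.11, and without the fifth Het library Suclg2 was at 0.18. Idh2, the leading gene of the PI3Kα comparison, was at -0.02 ± 0.20, with 354 to 451 in Het and 302 to 448 in Null. Acadm was at -0.19 ± 0.22, the opposite sign to the PI3Kα comparison.

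**Figure D4:**
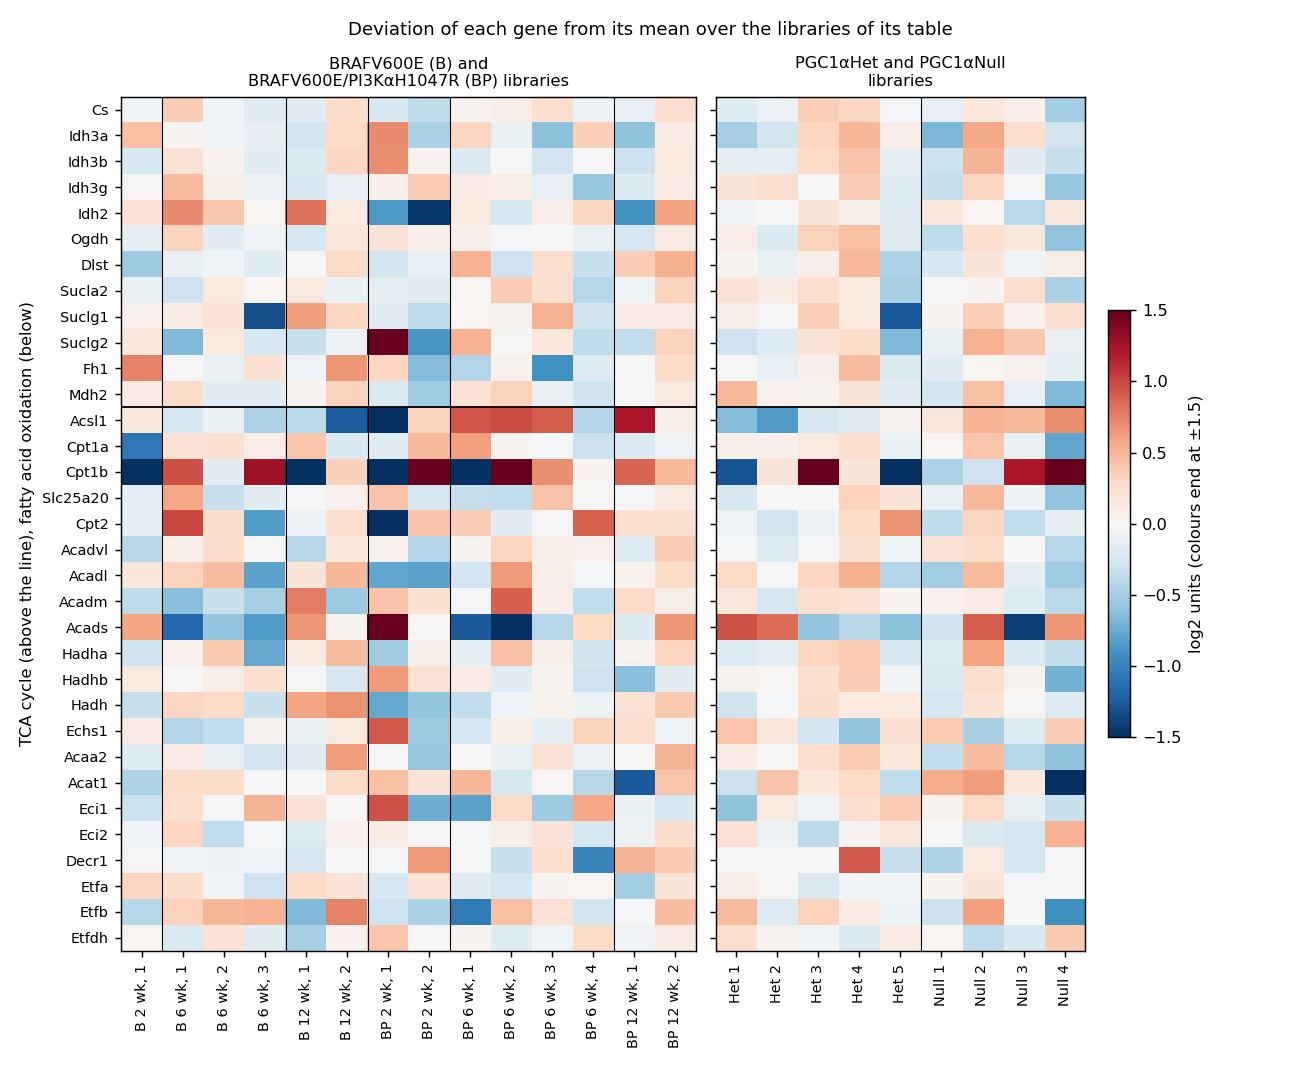
Deviation of each gene (rows) from its own mean over the libraries of its table (columns), in log2(normalised count + 1) units, red above and blue below. B, BP, Het and Null are as in the plot of pathway levels, and thin lines part the groups. Deviations are mostly pale, strong colours sit in the low-level genes Cpt1b and Acads, and single libraries such as BP 2 wk, 1 (Acads, Suclg2) and Null 4 (Acat1) stand out more than any group does.

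Libraries differed within groups in a way that ran across both pathways. In BRAFV600E/PGC1αNull 29 of 33 members were above their table mean in the second library and 24 below it in the fourth, with Acat1, which makes and splits acetoacetyl-CoA, at 510 and 113. Such libraries were not limited to 1 group, as 28 members were above the mean in the fourth Het library and 29 in the second 12-week BRAFV600E/PI3KαH1047R library. The mean log2 value over all genes also differed, at 6.62 and 6.84 in these Null libraries and 6.48 in that Het library. In that BRAFV600E/PI3KαH1047R library it was 7.62, in a table that ran from 7.47 to 7.62. The part of such library-wide differences in the counts of members was not tested. The steadiest members within genotype were Ogdh (SD 0.18, log2) and Eci2 (0.20) in the first table and Etfa (0.11) and Idh2 (0.20) in the second. The most variable were Cpt1b (2.06) and Acads (1.73) in the first and Acads (0.91) and Acat1 (0.72) in the second. Acads and Cpt1b are also the members with the lowest counts. The median SD of the members was 0.41 and 0.33, and that of all genes of a like level was 0.48 and 0.39.

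Set side by side, the comparisons had the same sign for 21 of the 32 members tested in both tables, 6 higher and 15 lower, beside 53% of the 16055 genes tested in both. Acsl1 was the highest of the members in both, at 0.68 and 0.84, and the tables share no library. Fh1 (-0.44 and -0.10), Acadl (-0.25 and -0.32), Hadh (-0.35 and -0.10) and Etfb (-0.30 and -0.29) were lower in both. Across the 32 genes Pearson's r was 0.442, given as a description, since genes of 1 library are not independent replicates.

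Of 11 other TCA cycle genes, such as the succinate dehydrogenase subunits, 0 had an unadjusted limma p below 0.05 in either pooled comparison, with medians of -0.12 in the PI3Kα and -0.08 in the PGC1α comparison (10 tested). Of the other mitochondrial fatty acid oxidation genes, 3 of 18 did so in the PI3Kα comparison (6.83% of all genes did), namely the thioesterase Acot13 (-0.79), the branched-chain dehydrogenase Acadsb (0.56) and carnitine acetyltransferase Crat (-0.40), and 1 of 19 in the PGC1α comparison (3.83% of all genes did), Acad11 (-0.56). Of 14 peroxisomal genes, 1 did so in each, the thiolase genes Acaa1a (0.44) and Acaa1b (3.07). Of 18 regulators, 2 did so in the PI3Kα comparison, Ppargc1a and the estrogen-related receptor Esrrg (-0.58), and 3 in the PGC1α comparison, Ppargc1a, the retinoid receptor Rxra (0.70) and Pdk4 (-1.78), a kinase that holds pyruvate dehydrogenase inactive. None of these passed the adjusted limma p of 0.05. The list names are labels, and where each product acts in the cell was not tested. The other TCA cycle genes include Mdh1, Idh1 and Aco1, and the other mitochondrial fatty acid oxidation genes include Acsl3, Acsl4 and Nudt19. At 2 weeks, where 13.5% of all genes had an unadjusted p below 0.05, 6 of 18 other mitochondrial fatty acid oxidation genes did (5 lower, 1 higher), beside 3 of 18 regulators (all lower), 1 of 14 peroxisomal and 0 of 11 other TCA cycle genes. Among them were the acyl-CoA synthetases Acsl3 (-2.67) and Acsl4 (-2.53) and the receptor gene Esrra (-5.07), with adjusted limma p of 0.106, 0.183 and 0.266, against the single BRAFV600E library whose AT2 marker sum was also the higher one. The part of AT2 cells in these values was not tested. The Esrra difference did not keep its sign, as it was 2.60 at 12 weeks and changed by 6.22 from 2 to 6 weeks. At 6 weeks 2 of 18 other mitochondrial fatty acid oxidation genes, Acad10 (1.02) and Acot13 (-0.83), and 1 of 18 regulators, Ppargc1a, had an unadjusted p below 0.05 (4.24% of all genes did), as did 0 of the other lists. At 12 weeks 2 of 18 other mitochondrial fatty acid oxidation genes had an unadjusted p below 0.05 (3.76% of all genes did), and 0 of the other lists. The CoA hydrolase gene Nudt19 stood at 18.99 and 38.0 in BRAFV600E and at 198 and 119 in BRAFV600E/PI3KαH1047R, a difference of 2.47 ± 0.68. The carnitine transporter gene Slc22a5 stood at 324 and 383 against 90.7 and 196, a difference of -1.39 ± 0.59. Both had an adjusted limma p of 1.00, and both rest on the 2 double-mutant libraries with Y-linked expression opposite to their labels.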

How the data were processed

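RNA came from sorted tdTomato-positive cells of single mice (RNeasy micro kit), and was made into Ovation Ultralow libraries that were read from 1 end. Per the labels, reads were checked with FastQC, quantified with Salmon (GRCm38) and normalised with DESeq2, and the versions are not given in the sources used here. The deposited values are a signal per gene, estimated read counts divided by size factors by the authors, separately for the 14 libraries of the first table and the 9 of the second, and not whole, so the count model of the study could not be refitted. The authors' tables of fold changes and p-values were not used. Depth per library, and so counting error, is unknown.

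For this report log2(value + 1) was tested with limma 3.58.1 (R 4.3.3, variance trend, two-sided, Benjamini-Hochberg adjustment over all genes with a mean of at least 10, threshold 0.05). The PI3Kα comparison used genotype alone, as in the study, the weekly comparisons 1 mean per genotype and week over all 14 libraries, which share 1 estimate of spread so that single libraries are assumed to vary like the others, and the week comparisons genotype as a covariate. Since log2(value + 1) is used, differences of low genes are understated. Single genes also had an exact two-sided permutation test over libraries. The scripts were tested on simulated data. Members were named where the unadjusted p was under 0.05, and at least the 4 with the smallest p in each comparison, beside Ppargc1a and up to 3 genes of each list of other genes; members described for level or spread were chosen after their values were seen. The members and the gene lists were chosen with earlier results of these data known. Alternatives were a pseudocount of 4, a minimum mean of 40, no minimum, quantile normalization, sex or week as a factor, a replicate block, and leaving out libraries. Replicates are separate mice, and no pair of libraries held identical values. The order of samples and files was not used to group them.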

Additional observations from a re-analysis of the deposited data

Results flagged for a closer look

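Among groups of 4 to 10 libraries, 9 of 64 sets of values for the named genes held a library set apart from its group by a wide gap, where chance flags about 1 in 20. In BRAFV600E these were Acadl at 669 and Suclg1 at 151, both in the third library of 6 weeks and both lowest, and Acadm at 858 (highest) and Decr1 at 603 (lowest), both in the first library of 12 weeks. In BRAFV600E/PI3KαH1047R they were Acads at 316 and Idh3b at 3306, both highest in the first library of 2 weeks. Among the 4 libraries of that genotype at 6 weeks they were Acadvl at 1015 (highest, second library), Acsl1 at 534 (lowest, replicate 4) and Ppargc1a at 117 (lowest, first library).

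The PI3Kα effect on Cpt1a differed between 2 and 6 weeks by -1.32 (log2) with an unadjusted p under the threshold, which did not pass the adjustment over all genes (limma adjusted p = 0.483) and rests on 1 BRAFV600E library at 2 weeks.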

How the results depend on the processing

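0 members passed an adjusted limma p of 0.05 in any comparison under every alternative run. The median difference of the members, which was near 0, changed sign with the setting in several comparisons. With quantile normalization it was -0.034 at 2 weeks and 0.12 for the change from 2 to 6 weeks. With 1 library left out it ran from -0.028 to 0.058 over pooled weeks, from -0.036 to 0.13 between 6 and 12 weeks, from -0.038 to 0.15 at 2 weeks, from -0.12 to 0.089 at 6 weeks, from -0.20 to 0.14 at 12 weeks, from -0.093 to 0.12 between 2 and 6 weeks, from -0.18 to 0.089 for the change of the PI3Kα effect between 2 and 6 weeks, and from -0.20 to 0.21 for that between 6 and 12 weeks. The extremes at 12 weeks came from leaving out either BRAFV600E/PI3KαH1047R library, and the cause was not tested. Of single genes, Idh2 at 12 weeks ran from -1.38 to 0.12 and Ppargc1a from -2.31 to 0.13, and the change of the Ppargc1a effect between 6 and 12 weeks from -0.33 to 2.11.

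Replicate numbers did not pair the libraries (correlations of deviations from -0.467 to 0.211 over same-numbered libraries). With the replicate block the median was 0.03 in the PI3Kα and -0.15 in the PGC1α comparison, where the fifth Het library, which has no partner, then carries no information, and 0 members passed the adjusted p. With the numbers crossed at 12 weeks, an alternative chosen after seeing the data, 0 passed as well and 1 had an unadjusted p below 0.05, beside 0 with the numbers as given. Leaving out both 12-week BRAFV600E/PI3KαH1047R libraries or all 2-week libraries, and all alternatives to the change between weeks, were also chosen after seeing the data. The absent depth and groups of 1 and 2 libraries limit what could be resolved at 2 and 12 weeks.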
